A study of Mus musculus with 6 samples.

Results

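Dnmt1, Dnmt3a, Dnmt3b, Uhrf1, Mbd1, Mbd2, Tet1, Tet2 and Tet3, 9 genes whose proteins write, read or remove DNA methylation, were followed by symbol through every cell type of the mouse main olfactory epithelium (MOE) that marker genes could separate. They are 9 of the 24564 genes counted, listed for the known roles of their proteins. All 9 were listed in all 6 single-cell RNA-seq libraries.

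The libraries came from whole MOE dissociated with papain, and the study asked what happens to olfactory sensory neurons (OSNs) when the heterochromatin protein HP1α takes the place of HP1β. In swap mice (2 libraries) both Cbx1 alleles, which encode HP1β, carry a cassette that a Cre recombinase switches to the coding sequence of HP1α, the product of Cbx5. The study describes the Cre as specific to neuronal cells, and the name of its driver is not reported here. Of the 2 control libraries, replicate 1 is labelled wild type with the Cre, and replicate 2 carries the swap alleles without a Cre. The other 2 libraries are of mice labelled gg8-tTA; tetOP2iresGFP (tetOP2), in which a transactivator under the gg8 promoter can drive one transgenic receptor, and gg8-tTA alone (gg8tTA), 1 library each. The series text states that all mice carried these constructs, whereas the labels of the swap and control libraries do not list them. Ages and pooling of animals were not given in the sources used here, and the study's methods name 2 biological replicates. P-values therefore measure the spread between single libraries.

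Methyl groups on the cytosine of CG pairs are copied to the new strand after each round of replication. Dnmt1 is the enzyme that does this, and Uhrf1 brings it to hemimethylated DNA behind the fork. Dnmt3a and Dnmt3b place methyl groups on DNA that had none, and in neurons Dnmt3a is known for methylation that builds up as the cells mature. Mbd1 and Mbd2 bind methylated DNA and recruit repressors. Tet1, Tet2 and Tet3 oxidize the methyl group, which can lead to its loss, and neurons are known for high levels of the first oxidation product.

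The libraries held 2563 to 7703 cell barcodes and 32005196 to 63277934 unique molecular identifiers (UMIs), of which no pair of libraries shared more than 20 barcodes. Of 23955 cells kept after filters and removal of doublets, 20901 (87.3%) fell into a gate set by markers, and 19 gates held enough cells to be used. Each name below stands for cells alike to that type in marker expression. The gate of fibroblasts was led by the bone genes Bglap and Ibsp, and no vomeronasal neuron was found. The label of all libraries is OSN, but they held 4636 mature OSNs among many other types. Control replicate 2 kept 57.5% of its barcodes, the others 84.4% to 100%. Cbx1 stood at 1.1 and 3.58 CPM (UMIs of the gene per 1000000 UMIs of the summed cells) in swap mature OSNs and at 77.3 and 151 CPM in control mature OSNs, and Cbx5 at 73.6 and 89.4 against 19.5 and 31.0 CPM. Xist was high and Ddx3y at 0 in swap replicate 1, tetOP2 and gg8tTA, and the reverse held in the other libraries, so the sexes were not balanced between the groups.

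The neuron lineage was divided into horizontal basal cells (HBCs, the reserve stem cells, 1097 cells), globose basal cells (GBCs, the dividing progenitors, 265 cells), immediate neuronal precursors (INPs, 677 cells), early immature OSNs (1670 cells), late immature OSNs (2979 cells) and mature OSNs (4636 cells). UMIs were summed over the cells of a gate in each library and given as CPM. The question was where along this path each gene is used. Levels are compared within a gene only.

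Uhrf1 and Dnmt1, the maintenance pair, were highest in GBCs among the stages of the lineage. Dnmt1 (chr9:20907209-20959888, mm10, minus strand) had a lowest, median and highest level over the 6 libraries of 28.4, 36.1 and 72.2 CPM in HBCs, 89.4, 172 and 212 CPM in GBCs, 66.8, 83.2 and 127 CPM in INPs, and 15.7, 20.7 and 27.2 CPM in mature OSNs. The GBC range lay above those of HBCs and mature OSNs without overlap, and the level fell at each later step in 6 of 6 libraries. Uhrf1 (chr17:56303321-56323486, plus strand) had 16.7, 22.8 and 30.4 CPM in HBCs, 87.0, 96.9 and 150.0 CPM in GBCs, 23.4, 35.3 and 43.1 CPM in INPs, and then 1.13, 2.36 and 3.26 CPM in early immature OSNs. Its ranges in GBCs, INPs and early immature OSNs did not overlap each other, and in mature OSNs it was close to the limit of detection, at 0.19 to 1.69 CPM and 47 UMIs over all 6 libraries. With each cell thinned to 3000 UMIs, a Uhrf1 UMI was found in 12.7% to 33.3% of GBCs and 0% to 0.349% of mature OSNs, per library. This left out 1 GBC and 112 mature OSNs. Without thinning the shares were 60% to 82.8% and 0.221% to 1.92%, at median depths of 19392 to 29026 and 11279 to 12558 UMIs.

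The stages were compared in 1 fit of edgeR's quasi-likelihood test over the sums of all gates, with the library as a block and Benjamini-Hochberg adjustment over 15386 genes, and a call needed an adjusted p under 0.05 together with a log2 fold change larger than 0.58 either way. Against mature OSNs, Dnmt1 was 6.38-fold higher in GBCs (log2 2.67, SE 0.19, adjusted p = 2.8e-22) and Uhrf1 94.9-fold higher (log2 6.57, SE 0.31, adjusted p = 8.9e-32). From HBCs to GBCs Dnmt1 rose by 1.75 and Uhrf1 by 1.98 on the log2 scale. From INPs to early immature OSNs Dnmt1 fell by 1.02 and Uhrf1 by 4.03 (SE 0.37), a 16.3-fold drop. The summed level of 16 cell-cycle genes, such as Mki67 and Mcm2, also rose from HBCs to GBCs and fell from INPs to early immature OSNs. It was at 305 to 1610 CPM in HBCs, 3250 to 5520 CPM in GBCs and 2340 to 3970 CPM in INPs. In early immature OSNs it was at 132 to 178 CPM and in mature OSNs at 86.5 to 136 CPM. For the cycle genes and for Dnmt1 the INP range overlapped that of GBCs, unlike for Uhrf1. The 1610 CPM belonged to the HBCs of swap replicate 1, the library that also held the 72.2 CPM of Dnmt1, while the other libraries had at most 795 CPM of cycle genes there. With cells thinned to 2000 UMIs, the fall of Dnmt1 from INPs to early immature OSNs was no longer called (log2 -0.58, adjusted p = 0.0664).

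**Figure D1:**
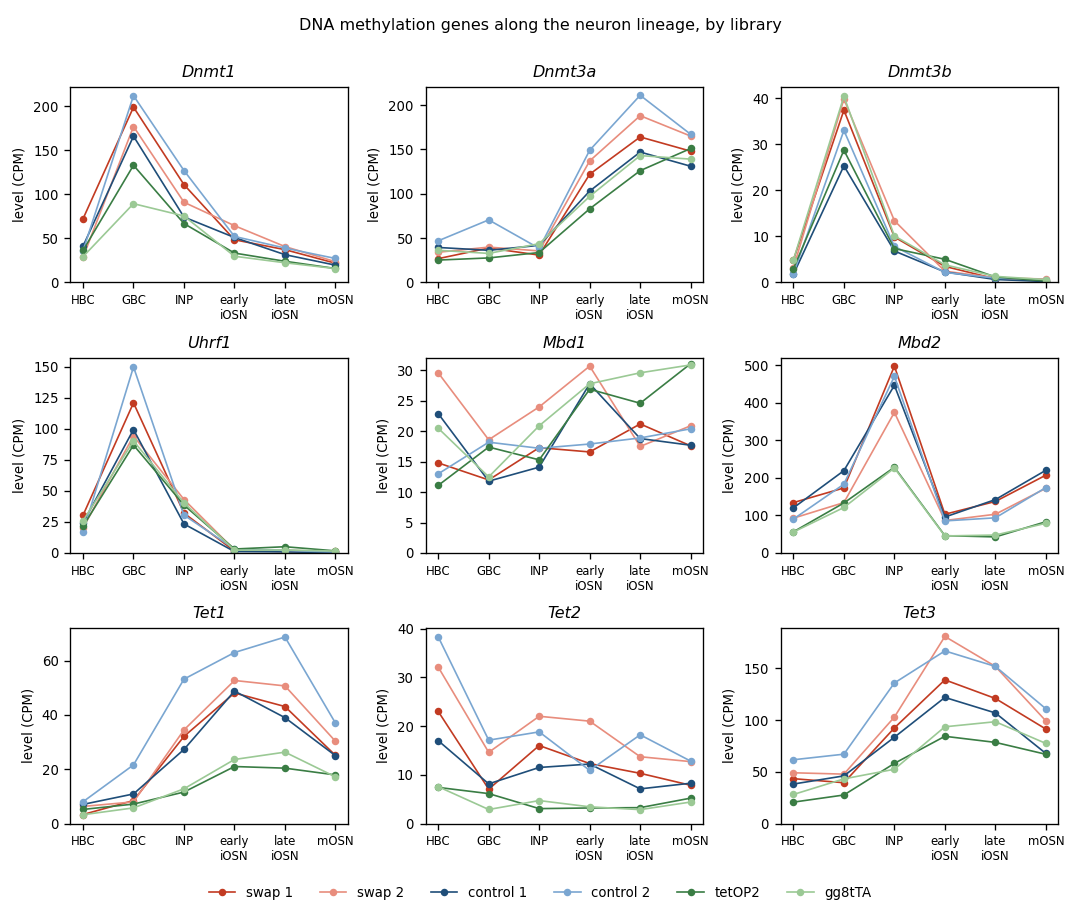
Level of each of the 9 genes (CPM, linear axis from 0) in HBCs, GBCs, INPs, early and late immature OSNs and mature OSNs, with 1 line and set of points per library. Uhrf1, Dnmt1 and Dnmt3b peak in GBCs, where Uhrf1 reaches 87.0 to 150.0 CPM, Mbd2 peaks in INPs at 226 to 497 CPM, and Dnmt3a climbs from 30.8 to 43.7 CPM in INPs to 126 to 211 CPM in late immature OSNs.

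The de novo enzymes ran in opposite directions. Dnmt3b (chr2:153649450-153687730, plus strand) was at 1.76, 3.06 and 4.86 CPM (lowest, median, highest) in HBCs, 25.3, 35.2 and 40.4 CPM in GBCs, 6.82, 8.85 and 13.4 CPM in INPs, and 0.19, 0.433 and 0.735 CPM in mature OSNs, where it summed to 26 UMIs. From HBCs to late immature OSNs, no range overlapped that of the stage just before it. Dnmt3a (chr12:3806007-3914443, plus strand) was at 25.2, 35.1 and 46.9 CPM in HBCs, 27.6, 37.5 and 70.5 CPM in GBCs and 30.8, 36.9 and 43.7 CPM in INPs, and then at 83.0, 112 and 149 CPM in early and 126, 155 and 211 CPM in late immature OSNs. The INP and early immature ranges did not overlap, and mature OSNs, at 131, 149 and 167 CPM, lay within the late immature range. In the same fit Dnmt3b was 54.1-fold higher in GBCs than in mature OSNs (log2 5.76, SE 0.36, adjusted p = 4.6e-25), and Dnmt3a 4.6-fold lower (log2 -2.20, SE 0.17, adjusted p = 1.0e-19). Dnmt3a rose by 1.51 on the log2 scale (SE 0.17) from INPs to early immature OSNs in 6 of 6 libraries, while Dnmt3b fell there by 1.56. After thinning to 2000 UMIs this fall of Dnmt3b was no longer called in edgeR's test (log2 -1.41, adjusted p = 0.131). Its fall from early to late immature OSNs (log2 -1.58) and its call in early immature against mature OSNs (log2 0.93) were lost there as well. The further rise of Dnmt3a to late immature OSNs, 0.63 on the log2 scale, was lost in 6 of the alternatives, among them the fits without control replicate 1 and without gg8tTA (both log2 0.56). Early immature against mature OSNs gave log2 -0.72 for Dnmt3a, a call lost without TMM scaling (log2 -0.41), with the swap and control libraries only (log2 -0.57) and after thinning (log2 -0.49).

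Mbd2, the methyl-binding reader that is part of a nucleosome-remodelling complex, had a narrow peak in INPs. Its levels were 121, 153 and 219 CPM (lowest, median, highest) in GBCs, 226, 410 and 497 CPM in INPs, 45.3, 85.8 and 103 CPM in early immature OSNs, and 78.9, 173 and 220 CPM in mature OSNs. INPs lay above GBCs and early immature OSNs without overlap. It rose by 1.20 on the log2 scale (SE 0.14) from GBCs to INPs and fell by 2.34 (SE 0.14, adjusted p = 8.4e-25), or 5.05-fold, to early immature OSNs, each in 6 of 6 libraries. Early and late immature OSNs were both below mature OSNs (log2 -1.31, SE 0.14, and log2 -0.93, SE 0.13), and Mbd2 was the one gene of the 9 called between late immature and mature OSNs. Mbd1, which binds methylated CG pairs through the same type of domain, was at 11.8 to 18.6 CPM in GBCs and 17.6 to 31.1 CPM in mature OSNs, and 1.86-fold lower in GBCs (log2 -0.90, SE 0.21, adjusted p = 1.6e-04). Its call in INPs (log2 -0.62) was lost in 11 alternatives, among them the fits without control replicate 1 (log2 -0.47), control replicate 2 (log2 -0.54), swap replicate 1 (log2 -0.53), tetOP2 (log2 -0.42) and gg8tTA (log2 -0.44).

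Tet1 and Tet3 rose from GBCs to INPs, and among the stages of the lineage Tet2 had its highest median in HBCs. Tet3 (chr6:83362373-83459084, minus strand) stood at 27.6, 44.7 and 67.1 CPM (lowest, median, highest) in GBCs, 52.5, 88 and 136 CPM in INPs, 84.4, 130.0 and 181 CPM in early immature OSNs, and 67.0, 84.4 and 111 CPM in mature OSNs. Tet1 (chr10:62804570-62908996, minus strand) stood at 5.76, 8.21 and 21.6 CPM in GBCs, 11.6, 29.7 and 53.2 CPM in INPs, 21, 48.5 and 63.0 CPM in early immature OSNs, and 17.2, 25.1 and 37.0 CPM in mature OSNs. Ranges of neighbouring stages overlapped for both genes, but within each library both were higher in INPs than in GBCs and higher in early immature OSNs than in INPs. From GBCs to INPs the fit gave a rise of 1.46 on the log2 scale for Tet1 (SE 0.24) and 0.96 for Tet3 (SE 0.15). After thinning to 2000 UMIs that of Tet1 was no longer called in edgeR's test (log2 0.98, adjusted p = 0.225). From INPs to early immature OSNs the rise of Tet3 was not called. The rise of Tet1 to early immature OSNs, at log2 0.59, was called by a small margin and was lost in 10 alternatives, with values of 0.45 (without control replicate 1) to 0.57 (without swap replicate 2, and with DESeq2). Without gg8tTA it was 0.47, without swap replicate 1 0.50 and without tetOP2 0.52.

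Against mature OSNs, Tet1 was 3.13-fold and Tet3 2.35-fold lower in GBCs (log2 -1.65, SE 0.23, and log2 -1.23, SE 0.14). Tet2 (chr3:133463679-133545139, minus strand) was at 7.41, 20 and 38.3 CPM in HBCs, 2.88, 7.59 and 17.1 CPM in GBCs and 4.41, 8.06 and 12.8 CPM in mature OSNs, with overlapping ranges. It fell by 1.41 on the log2 scale from HBCs to GBCs (SE 0.24), lower in 6 of 6 libraries, a call lost after thinning to 2000 UMIs (log2 -0.74, adjusted p = 0.269). The rise of Tet1 from HBCs to GBCs (log2 0.73) was lost in 6 alternatives, among them without control replicate 2 (log2 0.63) and without swap replicate 1 (log2 0.55). That of Mbd2 at the same step (log2 0.65) was lost in 5, among them without gg8tTA (log2 0.55) and without tetOP2 (log2 0.57).

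Of the 45 tests of 9 genes in 5 stages against mature OSNs, 26 were called. In HBCs 8 of 9 genes were called, 4 higher and 4 lower, where 65.4% of all genes tested were called, 30.4% higher and 35.0% lower. In GBCs 7 were called against 62.1% of all genes, in INPs 6 against 56.0%, in early immature OSNs 4 against 40.3% and in late immature OSNs 1 against 25.5%. Of 36 tests between successive stages, 20 were called, namely 6 of 9 from HBCs to GBCs (42.3% of all genes), 6 from GBCs to INPs (32.5%), 6 from INPs to early (36.6%) and 2 from early to late immature OSNs (12.4%). The counts against mature OSNs are of the order found over all genes and say nothing particular about the 9. The median log2 fold change over the 15386 genes was -0.23 in GBCs against mature OSNs and 0.02 without TMM scaling, so that the scaling shifts these fold changes. With DESeq2 it was 0.56, but over 20968 genes without the filter, and is not comparable with those medians. Dnmt1 in GBCs was at log2 2.67, at 2.96 without TMM and at 2.84 with DESeq2. Dnmt3a was at log2 -2.20, -1.91 and -2.04 in the same order. In GBCs the summed levels of 10 mature OSN markers were 47.9 to 357 CPM, with up to 5 of them at 0 in a library, those of 6 erythroid markers 0.904 to 33.6 CPM, and those of 8 neutrophil markers 17.1 to 490 CPM, highest in swap replicate 1. The 7 sustentacular markers summed to more, 849 to 1550 CPM in GBCs, 1360 to 1840 CPM in HBCs and 71.3 to 360 CPM in mature OSNs. Their part in the levels was not tested.

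Since Dnmt1 and Uhrf1 act behind the replication fork, precursors (GBCs and INPs together, 942 cells) were split by their UMIs of the 16 cycle genes, into 571 cycling cells with 4 or more and the rest with 3 or fewer. Uhrf1 was at 103 and 78.7 CPM in cycling cells of swap replicates 1 and 2, 78.1 and 105 CPM in control replicates 1 and 2, 73.7 CPM in tetOP2 and 74.5 CPM in gg8tTA, and in the rest at 0, 2.98, 0, 1.86, 1.62 and 7.81 CPM, which is 7 UMIs in all against 945. The groups did not overlap. Dnmt1 was at 187, 148, 144, 198, 112 and 94.3 CPM in cycling cells, in the same order, and at 45.8, 32.8, 40.3, 52.1, 26.0 and 29.3 CPM in the rest, also without overlap. Dnmt3b was at 31.7, 28.7, 15.6, 22.2, 18.1 and 26.3 CPM against 0, 5.97, 8.22, 5.59, 6.49 and 7.81 CPM.

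Each of these 3 genes was higher in cycling cells in 6 of 6 libraries. In edgeR's quasi-likelihood test over 10561 genes with the library as a block, Uhrf1 was 41.3-fold higher (log2 5.37, SE 0.33, adjusted p = 9.2e-11), Dnmt1 3.9-fold (log2 1.96, SE 0.12, adjusted p = 1.0e-10) and Dnmt3b 3.39-fold (log2 1.76, SE 0.31, adjusted p = 1.1e-04). Tet1 and Tet3 were lower in cycling cells in 6 of 6 libraries. Tet1 fell from 42.5, 29.8, 31.4, 63.3, 16.2 and 15.6 CPM to 13.0, 21.9, 16.1, 32.7, 8.03 and 8.44 CPM (log2 -0.96, SE 0.20, adjusted p = 4.3e-04). Tet3 fell from 94.8, 125, 94.9, 158, 64.9 and 74.2 CPM to 53.0, 69.1, 56.8, 91.4, 41.1 and 42.2 CPM (log2 -0.75, SE 0.11, adjusted p = 1.3e-05). Mbd2 was lower in 6 of 6 libraries with a log2 fold change under the limit (log2 -0.55, SE 0.11), Dnmt3a was lower in 5 of 6 (log2 -0.44, SE 0.16), and Mbd1 and Tet2 did not pass. In all, 5 of 9 genes were called, where 36.1% of all genes tested were.

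The split follows the stages, because 240 of 265 GBCs and 331 of 677 INPs counted as cycling. Cycle UMIs were not adjusted for depth, and the median depth was 20936 UMIs in GBCs and 11112 UMIs in INPs. The part of depth in the split was not tested. Within INPs alone Uhrf1 was 27.4-fold higher in cycling cells (log2 4.78, SE 0.36, adjusted p = 7.2e-12) and Dnmt1 3.27-fold (log2 1.71, SE 0.14, adjusted p = 2.5e-11). Dnmt3a was lower (log2 -0.64, SE 0.18, adjusted p = 0.00429). Tet1 (log2 -0.41, adjusted p = 0.121) and Tet3 (log2 -0.43, adjusted p = 0.00755) were no longer called, and Dnmt3b had too few UMIs to be tested there.

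**Figure D2:**
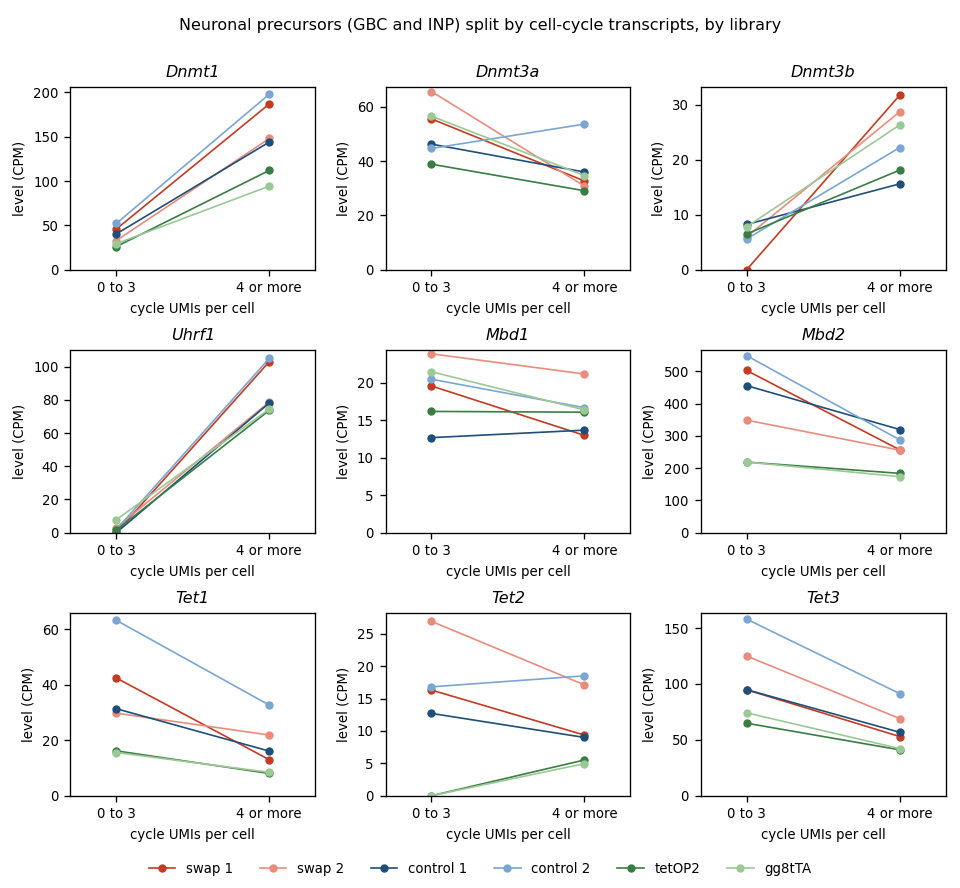
Level of each gene (CPM, linear axis from 0) in precursors with 0 to 3 and with 4 or more UMIs of 16 cell-cycle genes, joined by a line for each library. All 6 lines rise for Uhrf1, Dnmt1 and Dnmt3b, with Uhrf1 going from at most 7.81 CPM to at least 73.7 CPM, and all 6 fall for Mbd2, Tet1 and Tet3.

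The stretches before the starts of Uhrf1, Dnmt1 and Dnmt3b are shown because these 3 genes were higher in cycling cells together. For Dnmt3b this could not be tested within INPs alone, and so not apart from the stage. E2F factors, which switch on genes of DNA replication, bind words such as TTTCCCGC, TTTCGCGC, TTTGCCGC and TTTGGCGC, and these 4 words were searched on both strands in the 250 bases before each start (RefSeq, GRCm38.p6). One of them stood in 611 of 32851 such windows, or 1.86%. All 4 words hold a CG pair, the windows had CG quartiles of 2 and 16, and no share was counted for CG-rich windows alone. Uhrf1 held 1 match in 1 of its 2 windows, 185 bases before the start, and Dnmt1 held 1, read on the other strand, in 1 of its 3 windows, 219 bases before the start. For Dnmt1 only the 30 bases around the match are given, and these bases, the match included, lie within an annotated exon. Dnmt3b held none in its window. The capitals mark the match, and a match is a description of letters, not a measured binding site.
Uhrf1, chr17:56304063-56304312, plus strand: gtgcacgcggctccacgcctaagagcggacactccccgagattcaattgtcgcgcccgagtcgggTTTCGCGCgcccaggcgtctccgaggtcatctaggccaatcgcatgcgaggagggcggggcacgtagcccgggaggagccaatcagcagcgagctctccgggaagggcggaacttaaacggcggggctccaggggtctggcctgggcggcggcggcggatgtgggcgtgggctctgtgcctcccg
Dnmt1, chr9:20952824-20952853, minus strand: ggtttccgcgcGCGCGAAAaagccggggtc
Dnmt3b, chr2:153649199-153649448, plus strand: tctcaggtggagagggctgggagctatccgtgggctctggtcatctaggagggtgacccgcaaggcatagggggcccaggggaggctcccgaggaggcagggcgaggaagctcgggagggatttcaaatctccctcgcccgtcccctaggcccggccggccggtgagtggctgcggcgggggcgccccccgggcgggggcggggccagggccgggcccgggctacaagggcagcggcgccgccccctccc
The Uhrf1 window shown held 30 CG pairs at 69.6% G and C, and its other window 10 at 59.6%. The Dnmt3b window held 21 at 75.2%. The windows of Dnmt1 held 2, 7 and 26, the last of them the window with the match. The median over all windows was 6 CG pairs. The windows of Dnmt3a, Tet1, Tet2 and Tet3 held none of the words, and those of Mbd1 and Mbd2 were not analysed here.

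Outside the neuron lineage, Uhrf1 and Dnmt1 had their highest mean levels in B lineage and erythroid cells, and lower ones in the other blood gates. Uhrf1 was at 136, 163 and 204 CPM (lowest, median, highest of 6 libraries) in B lineage cells and at 107 to 193 CPM in erythroid cells of 5 libraries, and Dnmt1 at 83.3, 126 and 191 CPM and at 124 to 186 CPM. Their ranges overlapped that of GBCs. Against mature OSNs Uhrf1 was 181-fold higher in B lineage and 234-fold higher in erythroid cells (log2 7.50 and 7.87), and Dnmt1 6.29-fold and 10.7-fold higher. Neutrophil lineage cells, at 16.7 to 33.7 CPM of Uhrf1, were 59.3-fold above mature OSNs (log2 5.89), and their range overlapped that of INPs. In macrophages Uhrf1 was at 0 to 17.2 CPM (log2 2.52, SE 0.83), a call lost without swap replicate 1 (log2 2.28), with doublets kept (log2 1.6) and after thinning (log2 1.68), and in T and NK cells it was at 0 and 9.84 CPM and was not called. TMM scaling bears on these folds. Without it Uhrf1 was at log2 5.07 in neutrophil lineage, 7.32 in erythroid and 7.50 in B lineage cells, and Dnmt1 at log2 1.84, 2.88 and 2.66. The median log2 fold change over all genes was -0.49, -0.68 and -0.35 in these gates with TMM and -1.18, -1.19 and -0.36 without. In sustentacular cells, the supporting cells of the epithelium, Dnmt1 at 14.9 to 37.2 CPM did not pass the test and Uhrf1 at 4.3 to 15.2 CPM was 9.39-fold above mature OSNs. The gates held 1352 B lineage, 789 erythroid, 687 neutrophil lineage and 3825 sustentacular cells.

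Dnmt3a was called lower than in mature OSNs in all 13 gates outside the lineage, where the share of all genes called lower was 24.8% in T and NK cells, 25.7% in Trpm5 microvillar cells, 29.7% in ciliated cells, 32.0% in Bowman's gland cells, 32.8% in microvillar cells, 33.2% in endothelial cells, 34.1% in sustentacular cells and in ensheathing glia, 34.8% in fibroblasts, 36.3% in macrophages, 37.5% in B lineage, 38.2% in neutrophil lineage and 39.7% in erythroid cells. No alternative of this comparison was run for Bowman's gland, ciliated, fibroblast, microvillar, Trpm5 microvillar or T and NK cells. T and NK cells entered from swap replicates 1 and 2 only (20 and 28 cells). Trpm5 microvillar cells entered from swap replicate 2 and control replicate 2 only (21 and 27 cells). Dnmt3a was listed at 0 in 3 of 5 erythroid libraries and at 8.92 CPM in control replicate 1 and 14.9 CPM in gg8tTA, and it was 10.8-fold lower in neutrophil lineage cells (log2 -3.44, SE 0.24, and log2 -4.26 without TMM), at 1.39 to 12.2 CPM. In B lineage cells it was 6.66-fold lower. Sustentacular cells at 43.1, 55.3 and 101 CPM (lowest, median, highest) were 2.9-fold lower (log2 -1.54, SE 0.15), and olfactory ensheathing glia, which wrap the axons of OSNs, were 3.06-fold lower. Dnmt3b was higher than in mature OSNs in sustentacular cells (log2 2.78, SE 0.34), at 3.02 to 4.75 CPM, and in endothelial cells (log2 4.11, SE 0.52) at 6.05 to 22.3 CPM in 4 libraries.

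Of the erasers, Tet1 was at 16.3, 30.4 and 58.3 CPM in olfactory ensheathing glia, overlapping mature OSNs at 17.2 to 37.0 CPM (log2 0.05, SE 0.21, not called), while Tet3 was 4.37-fold lower there (log2 -2.13, SE 0.18). Tet1 was 5.4-fold lower in sustentacular cells (log2 -2.43, SE 0.18) and 14.9-fold lower in macrophages (log2 -3.89, SE 0.43). Tet2, which is known for its part in blood cell development, differed between the blood gates. It was 9.65-fold lower than in mature OSNs in erythroid cells (log2 -3.27, SE 0.53), at 0 to 2.97 CPM, and not called in B lineage (log2 0.17, SE 0.23) or T and NK cells (log2 0.51, SE 0.59). In B lineage cells the value was -0.07 without swap replicate 2, and 0.87, a call, after thinning to 2000 UMIs. It was higher than in mature OSNs in macrophages (log2 1.72, SE 0.23), neutrophil lineage cells (log2 1.67, SE 0.21) and endothelial cells (log2 1.56, SE 0.29), and also in sustentacular cells (log2 1.01, SE 0.17). Its levels there were 0 to 58.6, 11.1 to 27.4, 13.4 to 60.5 and 6.03 to 39.6 CPM, and of these ranges that of endothelial cells alone did not overlap the 4.41 to 12.8 CPM of mature OSNs. Mbd2 was 2.68-fold higher in erythroid cells (log2 1.42, SE 0.14) at 122 to 464 CPM, and 1.64-fold lower in sustentacular cells (log2 -0.71, SE 0.13). The latter call was lost in 6 alternatives, among them without control replicate 1 (log2 -0.47), control replicate 2 (log2 -0.52) or swap replicate 1 (log2 -0.53). After thinning to 2000 UMIs the endothelial calls of Dnmt3b (log2 1.85) and Tet2 (log2 1.7) were lost as well. Of the 9 genes, 6 were called in B lineage cells, where 63.3% of all genes tested were called, 7 in erythroid cells (62.1%), 7 in neutrophil lineage cells (63.4%), 8 in macrophages (62.0%), 8 in endothelial cells (57.7%), 6 in sustentacular cells (62.5%) and 5 in olfactory ensheathing glia (59.4%). In the other gates 6 were called in fibroblasts (65.4%), 6 in Bowman's gland cells (55.5%), 5 in ciliated cells (58.7%), 5 in microvillar cells (55.8%), 4 in Trpm5 microvillar cells (42.5%) and 4 in T and NK cells (38.2%).

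**Figure D3:**
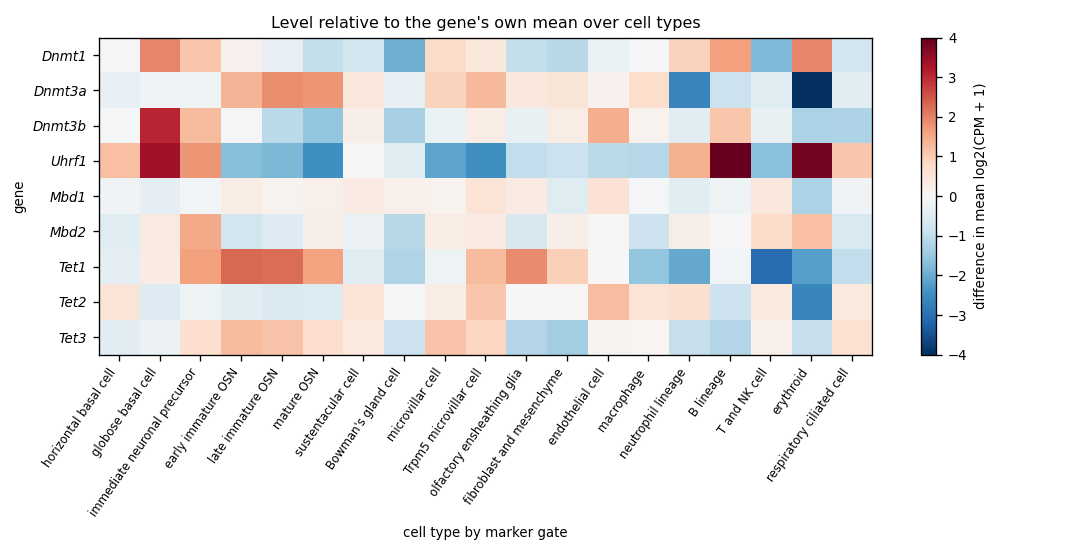
Mean log2(CPM + 1) of each gene in each of 19 gates as the difference from that gene's own mean over the gates, so that colours can be compared along a gene and not between genes. Uhrf1 spans the widest range, 6.45 on the log2 scale from Trpm5 microvillar to B lineage cells, and Mbd1 the narrowest, 1.84.

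Ordered by mean level over libraries, the 19 gates ran for Dnmt1 from GBCs (163 ± 45.2 CPM, SD, n = 6) over erythroid (161 ± 23.9, n = 5) and B lineage cells (131 ± 39.5, n = 6) down to Bowman's gland cells (9.73 ± 1.67, n = 3). Dnmt3a ran from late immature OSNs (163 ± 31.6 CPM) over mature OSNs (150.0 ± 14.3) to erythroid cells. Dnmt3b was highest in GBCs (34.1 ± 6.17 CPM), whose range lay above that of endothelial cells, the next in order, and lowest in mature OSNs (0.451 ± 0.211). Tet1 and Tet3 were both highest in early immature OSNs (42.9 ± 16.8 and 131 ± 38.7 CPM). Neighbours in these orders mostly could not be told apart, since of 18 pairs of neighbours the ranges overlapped in 16 for Dnmt3a, in 17 for Dnmt3b, Uhrf1 and Tet2, and in all 18 for the other 5 genes.

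As a description over the 19 gates, the mean log2 levels of Dnmt1 and Uhrf1 had a Pearson correlation of 0.66, those of Dnmt3a and Uhrf1 of -0.745, and those of Dnmt3a and Tet1 of 0.686. The gates share libraries. Among 12127 genes that reached 20 CPM in a gate, the 4 whose profile was most like that of Uhrf1 were Gtse1 (0.962), Dtl, Cenpn and Cenpp (each 0.945), genes known for roles in the cell cycle. For Dnmt1 they were Suv39h1 (0.89), Rbbp4 (0.882), Baz1b (0.873) and Lin9 (0.872), and for Dnmt3a Tcf25 (0.939), Tmem126a (0.938), Vps41 and Atf6b (each 0.936). For Dnmt3b they were Impdh2 (0.833), G3bp1 (0.823), Utp14a (0.807) and Bzw1 (0.803). Mbd1 was most like Egln1 (0.879), Tcf25 (0.84), Uqcc3 (0.83) and Sec24c (0.824), and Mbd2 like Hist1h3e (0.78), Racgap1 (0.76), Hist2h2bb (0.751) and Smc1a (0.74). Tet1 was most like Nsmf (0.921), Clip3 and Sgta (each 0.916) and 2610008E11Rik (0.911), Tet2 like Stat3 (0.916), Tiparp (0.904), Smarca2 (0.87) and Lasp1 (0.868), and Tet3 like Marveld2 (0.892), Tnpo2 (0.881), Gcnt2 (0.874) and Akirin1 (0.857).

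The wider list of 31 genes of the methylation pathway, of which 29 were tested, had 18 called in GBCs against mature OSNs, 12 higher and 6 lower, with a median log2 fold change of 0.31 where the median of all genes was -0.23. Since 62.1% of all genes were called there, the count is at the background share. No share by direction over all genes is given for GBCs or late immature OSNs. The counts higher and lower in this list are therefore not read as a shift. The largest rises were of Ung (log2 6.14, SE 0.33), which removes uracil from DNA, of Cdca7 (log2 5.75, SE 0.36) and its partner Hells (log2 5.50, SE 0.25), a remodeller needed for DNA methylation, and of Gadd45g (log2 4.43, SE 0.31) and Cxxc5 (log2 3.64, SE 0.20). Lower in GBCs were Zbtb38 (log2 -2.73, SE 0.23) and Zbtb4 (log2 -2.20, SE 0.19), zinc finger proteins that bind methylated DNA, Cxxc4 (log2 -2.41, SE 0.38), Mat2b (log2 -1.84, SE 0.12), a subunit of the enzyme that makes the methyl donor, and Mbd6 (log2 -1.26, SE 0.17). In late immature OSNs 8 of the 29 were called, 6 higher and 2 lower, where 25.5% of all genes were called, which is again near the background.

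Swap and control libraries were then compared, to see whether the exchange of HP1β for HP1α goes along with a change in these genes. In mature OSNs Dnmt3a was at 148 and 165 CPM in the swap and 131 and 167 CPM in the control libraries, and Dnmt1 at 21.8 and 23.5 against 19.6 and 27.2 CPM. Mbd2 was at 207 and 172 against 220.0 and 174 CPM, and Mbd1 at 17.6 and 20.9 against 17.7 and 20.4 CPM. Tet1 was at 25.1 and 30.3 against 25 and 37.0 CPM, Tet2 at 7.85 and 12.7 against 8.27 and 12.8 CPM, and Tet3 at 91.4 and 99.3 against 67.8 and 111 CPM. The swap and control ranges overlapped for each of these 7 genes.

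EdgeR's quasi-likelihood test, 2 libraries against 2, called 0 of the 7 genes, with log2 fold changes from -0.18 (Tet1, SE 0.27) to 0.08 (Tet3, SE 0.27), and 0 were below an unadjusted p of 0.05. The others were Dnmt1 at -0.07 (SE 0.25), Dnmt3a at 0.05 (SE 0.21), Mbd1 at -0.01 (SE 0.25), Mbd2 at -0.09 (SE 0.24) and Tet2 at -0.05 (SE 0.39). DESeq2 also called 0. The 2 control libraries are labelled with different genotypes, so the spread between them includes any difference that this makes. Over all 12199 genes tested 0.434%, or 53, were called, a count that ran from 0 to 202 over 7 alternatives that kept all 4 libraries. Dnmt3b and Uhrf1 had too few UMIs for the test.

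In immature OSNs, early and late together, Dnmt3a was at 148 and 171 CPM in the swap against 133 and 193 CPM in the control libraries, Dnmt1 at 41.3 and 48.7 against 37.5 and 43.0 CPM, and Tet3 at 128 and 162 against 111 and 156 CPM. For these 3 genes the groups overlapped. Dnmt3b, at 1.77 and 1.49 against 1.14 and 1.31 CPM, was higher in both swap libraries. All 9 genes were tested and 0 called by edgeR or DESeq2, with 0 below an unadjusted p of 0.05 in edgeR's test, where 0.113% of 12358 genes were called. The log2 fold changes were 0.15 for Dnmt1 (SE 0.21), -0.04 for Dnmt3a (SE 0.22), 0.40 for Dnmt3b (SE 0.50), 0.03 for Uhrf1 (SE 0.60), 0.02 for Mbd1 (SE 0.23), -0.01 for Mbd2 (SE 0.27), -0.18 for Tet1 (SE 0.26), 0.14 for Tet2 (SE 0.38) and 0.10 for Tet3 (SE 0.23). The difference between the immature and the mature swap effect, tested as an interaction, was called for 0 of the 9 genes and 0 of 13453 genes in all, and ran from -0.82 (Uhrf1, SE 0.75) to 0.22 (Tet2, SE 0.23) on the log2 scale.

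In precursors, Dnmt3b was at 27.4 and 24.5 CPM in the swap and at 12.7 and 18.1 CPM in the control libraries. It was the one gene of the 9 with an unadjusted p below 0.05 in edgeR's test there (log2 0.81, SE 0.34, adjusted p = 0.961). Of all 10263 genes tested, 499 were below that unadjusted p in the same test, and 0.0585% were called. The swap and control values of Dnmt3b did not overlap, and the share of all genes for which this held was not counted. With stricter gates 3 of the 9 were below that unadjusted p in edgeR's test, and without TMM or with DESeq2 0 were. GBCs made up 45.4% and 25.2% of swap precursors against 20.3% and 26.6% of control precursors, and cycling cells 70.6% and 70.9% against 44.6% and 58.7%. Sustentacular markers summed to 810 and 702 CPM in swap against 454 and 505 CPM in control precursors, and neutrophil markers to 327 and 40.6 against 33.3 and 22.7 CPM. The part of any of these in the difference of Dnmt3b was not tested. Uhrf1 was at 88.8 and 64.6 against 47.8 and 79.3 CPM (log2 0.34, SE 0.32), Dnmt1 at 167 and 127 against 104 and 161 CPM (log2 0.21, SE 0.29), and Tet1 at 17.0 and 23.4 against 22 and 40.3 CPM (log2 -0.56, SE 0.35). Mbd2 was at 291 and 273 against 373 and 353 CPM, lower in both swap libraries, and did not pass the test (log2 -0.33, SE 0.26). Dnmt3a was also lower in both, at 35.9 and 37.3 against 40.0 and 51.5 CPM (log2 -0.27, SE 0.29). Mbd1 (log2 0.24, SE 0.37), Tet2 (log2 0.09, SE 0.42) and Tet3 (log2 -0.33, SE 0.30) did not pass either, and 0 of the 9 genes were called by edgeR or DESeq2.

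**Figure D4:**
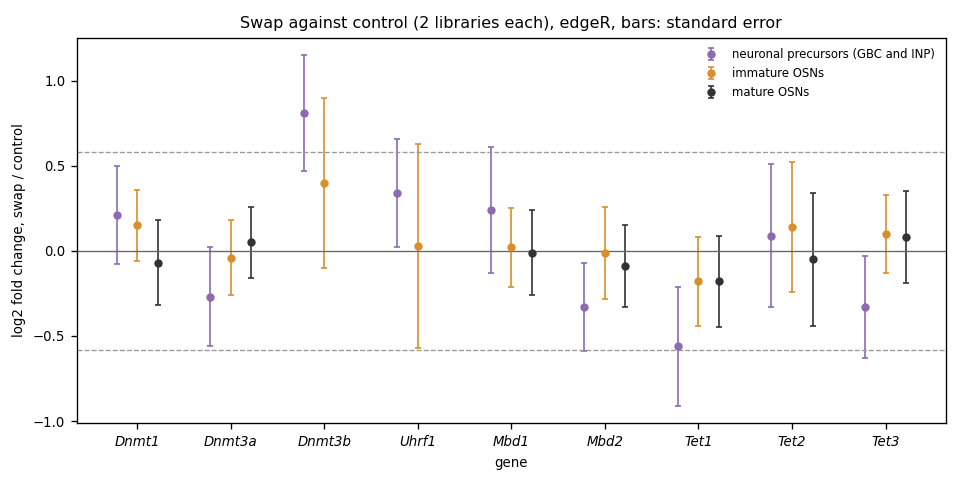
Log2 fold change of each gene between swap and control libraries (2 each) in mature OSNs, immature OSNs and precursors, where 0 is no difference. Bars are approximate standard errors, taken from the fold change and the F statistic of edgeR's test. No value passed the test, the largest being Dnmt3b in precursors at 0.81 with a standard error of 0.34, and Dnmt3b and Uhrf1 have no value in mature OSNs.

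In the 9 further gates that could be tested, among them HBCs, sustentacular cells and macrophages, 63 tests of the 9 genes gave log2 fold changes of -0.77 to 1.0 and 0 calls, with 1 test under an unadjusted p of 0.05 in edgeR's test. With the replicate block 6 of the 63 were under that unadjusted p in edgeR's test, and 0 were called. DESeq2 called 0 of 81. Of all genes tested there, 0.0396% were called in microvillar cells, 0.0162% in macrophages, 0.0102% in HBCs and 0 in the other gates. Cbx1 and Cbx5 were read in mature OSNs only, and the study describes the Cre as specific to neuronal cells. For immature OSNs and precursors the exchange was not read here either, and the study reports HP1α staining through the neuronal lineage of swap mice. Whether the cells of the 9 further gates carried the exchange was not tested, so the absence of calls there does not bear on it. The wider pathway list had 0 calls in mature OSNs, immature OSNs and precursors, with 26, 28 and 28 of its 31 genes tested.

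The position of OSNs in the epithelium was read from Nqo1, which marks dorsal neurons, by setting mature OSNs with 2 or more Nqo1 UMIs against those with none. Dnmt3a was at 139, 149, 122, 147, 130.0 and 136 CPM in the positive and at 154, 174, 135, 176, 161 and 140.0 CPM in the negative cells of swap replicates 1 and 2, control replicates 1 and 2, tetOP2 and gg8tTA. It was lower in the positive cells of 6 of 6 libraries, by 1.12-fold, which is under the limit for a call (log2 -0.17, SE 0.04, adjusted p = 0.0201 in edgeR's test). None of the 7 genes tested was called, where 7.74% of 11941 genes were. Dnmt3a was the one gene of the 7 with an unadjusted p below 0.05 in edgeR's test. Of all 11941 genes, 3092 were below it, so this is not particular to Dnmt3a. Nqo1 UMIs were not adjusted for depth, and the part of depth was not tested.

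The tetOP2 and gg8tTA libraries, 1 each and without a test, had exact Poisson intervals that overlapped each other for all 9 genes in mature OSNs. Dnmt1 was at 15.8 CPM (95% interval 12.9 to 19.1) and 15.7 CPM (12.8 to 19.0), Mbd2 at 83.1 (76.2 to 90.4) and 78.9 (72.3 to 86.0), and Tet3 at 67.0 (60.8 to 73.5) and 77.5 (71.0 to 84.6). These intervals cover counting error only. Both libraries stood apart from the other 4. Over the 6 stages of the lineage Mbd2 and Tet2 were below all 4 swap and control libraries in both of them at 6 of 6 stages, with a median of 50.1% and 26.0% of the mean of the other 4. The same held for Tet1 at 5 stages with 49.6%, Dnmt1 and Tet3 at 4 with 65.4% and 62.5%, and Dnmt3a at 3 with 79.6%. Mbd1 was below at 0 stages and above at 2, and Dnmt3b likewise. Mouse line and library preparation cannot be told apart here. Among the swap and control libraries, Tet3 was higher in both replicate 2 libraries than in both replicate 1 libraries at 6 of 6 stages, Tet2 at 5, and Tet1 and Dnmt3a at 4, across genotypes, whereas Mbd2 was lower in both replicate 2 libraries at 4 stages.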

How the data were processed

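Single-cell RNA-seq was made with 10X Chromium v3 chemistry from papain-dissociated MOE. The authors deposited raw UMI counts per gene and cell, made with Cell Ranger with introns included (build mm10 per the submitters' processing notes). The series text speaks of sorted cells, whereas the study's methods for these libraries describe no sort. A cell needed 1000 UMIs and 500 genes to enter, the cells most like simulated doublets were removed (0.8% per 1000 cells), and cells were gated by marker scores (score of at least 0.3, 3 or more markers, a margin of 0.1, and 3 or more Omp UMIs for mature OSNs). Counts were summed per library and gate with at least 20 cells. Stages, cycling and Nqo1 groups were compared with the library as a block, and swap with control without one.

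Tests used edgeR 4.0.16 in R 4.3.3 (quasi-likelihood, TMM, filterByExpr) with Benjamini-Hochberg adjustment over all genes tested, and a call needed an adjusted p under 0.05 with a log2 fold change beyond 0.58 either way, the limits of the study. Each SE is approximate, the size of the log2 fold change divided by the square root of the F statistic of edgeR's test. DESeq2 1.42.0 was an alternative, as were no TMM, no filter, stricter gates, doublets kept, at least 2000 UMIs, thinning to 2000 UMIs and leaving out each library. Scripts were tested on simulated data, whose spread was set and not taken from these libraries. Of 50 genes set to differ 2-fold, the test of swap against control called 15 in mature OSNs, 15 in immature OSNs and 11 in precursors. A gene not called in that comparison may therefore still differ 2-fold. Members, gene lists and markers were chosen with earlier results of these data known. Named like genes were the 4 with the highest Pearson correlation of mean log2 levels over the 19 gates, and named pathway genes the 5 with the largest change each way in GBCs. The cycling split was first planned at 2 or more cycle UMIs against 0, which left 1 library with 20 cells on both sides, and was changed to 4 after seeing the data. Sequences are from RefSeq (GRCm38.p6) and gene positions from the annotation of the same build.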

Additional observations from a re-analysis of the deposited data

How the results depend on the processing

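Of the 26 calls against mature OSNs in the lineage, 22 held in every alternative, and of the 20 calls between successive stages 11 did. The count of calls ran from 23 to 31 and from 12 to 21 over the alternatives, the 12 after thinning cells to 2000 UMIs, where the counts are smaller by construction. Cycling gave 3 calls in INPs alone and up to 6 elsewhere, against 5. Leaving out a library gave 25 to 26 calls against mature OSNs, 17 to 20 between stages and 5 to 6 for cycling. Swap against control gave 0 calls among the 9 genes in every alternative.

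Near 0, signs turned. In immature OSNs Mbd2 was 0.02 without TMM and 0.0 without the filter, with the replicate block and with stricter gates, and Mbd1 was -0.06 with doublets kept. In mature OSNs Mbd1 was 0.0 with DESeq2 and 0.01 without TMM or the filter. In precursors Tet2 was -0.01 with stricter gates. Leaving out 1 library of 4 gave these log2 ranges in immature OSNs: Dnmt3a -0.22 to 0.19, Mbd1 -0.13 to 0.2, Mbd2 -0.28 to 0.33, Tet1 -0.43 to 0.12, Tet2 -0.19 to 0.57, Tet3 -0.07 to 0.3 and Uhrf1 -0.49 to 0.72. In mature OSNs they were -0.23 to 0.13 for Dnmt1, -0.06 to 0.18 for Dnmt3a, -0.14 to 0.12 for Mbd1, -0.3 to 0.16 for Mbd2, -0.38 to 0.07 for Tet1, -0.44 to 0.26 for Tet2 and -0.18 to 0.41 for Tet3. In precursors they were -0.04 to 0.46 for Dnmt1, -0.08 to 0.51 for Mbd1, -0.37 to 0.46 for Tet2, 0.63 to 0.98 for Dnmt3b, -0.89 to -0.18 for Tet1, 0.06 to 0.64 for Uhrf1 and -0.54 to -0.1 for Tet3. Tet2 in B lineage cells against mature OSNs ran from -0.07 to 0.43 with 1 library of 6 left out. A library left alone in its group is assumed to vary like the other group. The causes were not tested.

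Swap and control libraries share only a replicate number (correlations of replicate differences 0.267, 0.257 and 0.332 over 2 pairs). With the replicate block 0 of the 9 genes were called in mature OSNs, immature OSNs or precursors, and 0, 124 and 6 of all genes were, against 53, 14 and 6 without it. In mature OSNs the count over all genes was also 0 with stricter gates, with doublets kept and at 2000 UMIs, 202 with DESeq2, 113 without the filter and 199 to 253 with a library left out.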
